A study of Mus musculus with 2 samples.

Results

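Genes of ribosome biogenesis and RNA polymerase I (Pol I) formed a group of 40 members, chosen by gene symbol from the 20706 genes that had a probe set of their own on the arrays. RNA came from BMSC-Adipo and BMSC-Osteo, clonal lines of bone marrow mesenchymal stem cells that immortalized spontaneously and whose functional difference is that BMSC-Adipo forms adipocytes and BMSC-Osteo forms osteoblasts. Both lines share a C57BL/6 background, a Beta-actin-GFP+ transgene and the ApoE(-/-) genotype, and neither was treated: RNA was taken at day 0 from basal DMEM with 12% FBS per the labels. Each line is a clone of its own and had 1 array made from a pool of 3 cultures, so clone and lineage cannot be told apart, and no spread within a line, no p-value and no error could be computed. Values are log2 levels after robust multiarray averaging (RMA), differences are BMSC-Osteo minus BMSC-Adipo, and a difference of 1 is 2-fold.

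Ribosomes are built in the nucleolus, where Pol I copies the ribosomal DNA into a long precursor RNA that is chemically modified, cut and packed with ribosomal proteins into a small and a large subunit. Small nucleolar ribonucleoproteins (snoRNPs) place the modifications, box C/D particles adding methyl groups and box H/ACA particles making pseudouridine, and large sets of assembly factors fold and trim the 2 subunits before export. The pathway is known for scaling with cell growth and protein synthesis, and osteoblast lineage cells are known for heavy secretion of matrix protein.

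The group stood higher in BMSC-Osteo almost throughout. Of the 40 members, 38 had a higher level in BMSC-Osteo, against 51.4% of all genes past the level filter, and the exceptions were *Utp20* and *Ubtf*. At least 2-fold higher in BMSC-Osteo were 18 members (45.0%), against 6.68% of the 14497 genes past the filter. None was at least 2-fold higher in BMSC-Adipo, against 7.88% of all genes. The median difference of the members was 0.84, against 0.03 over all genes past the filter, and the middle of the group ran from 0.54 at the lower quartile to 1.19 at the upper. The shift was broad rather than large: 10 further members lay between 1.5-fold and 2-fold higher in BMSC-Osteo, 28 in all passed 1.5-fold (14.5% of all genes), and 1, *Utp20*, passed 1.5-fold in the other direction (16.1% of all genes). No member reached 4-fold in either direction, against 1.99% of all genes higher in BMSC-Osteo and 2.27% higher in BMSC-Adipo by that size. All 40 members passed the filter, which kept genes whose mean over both arrays reached the 30th percentile, a log2 level of 4.20.

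**Figure D1:**
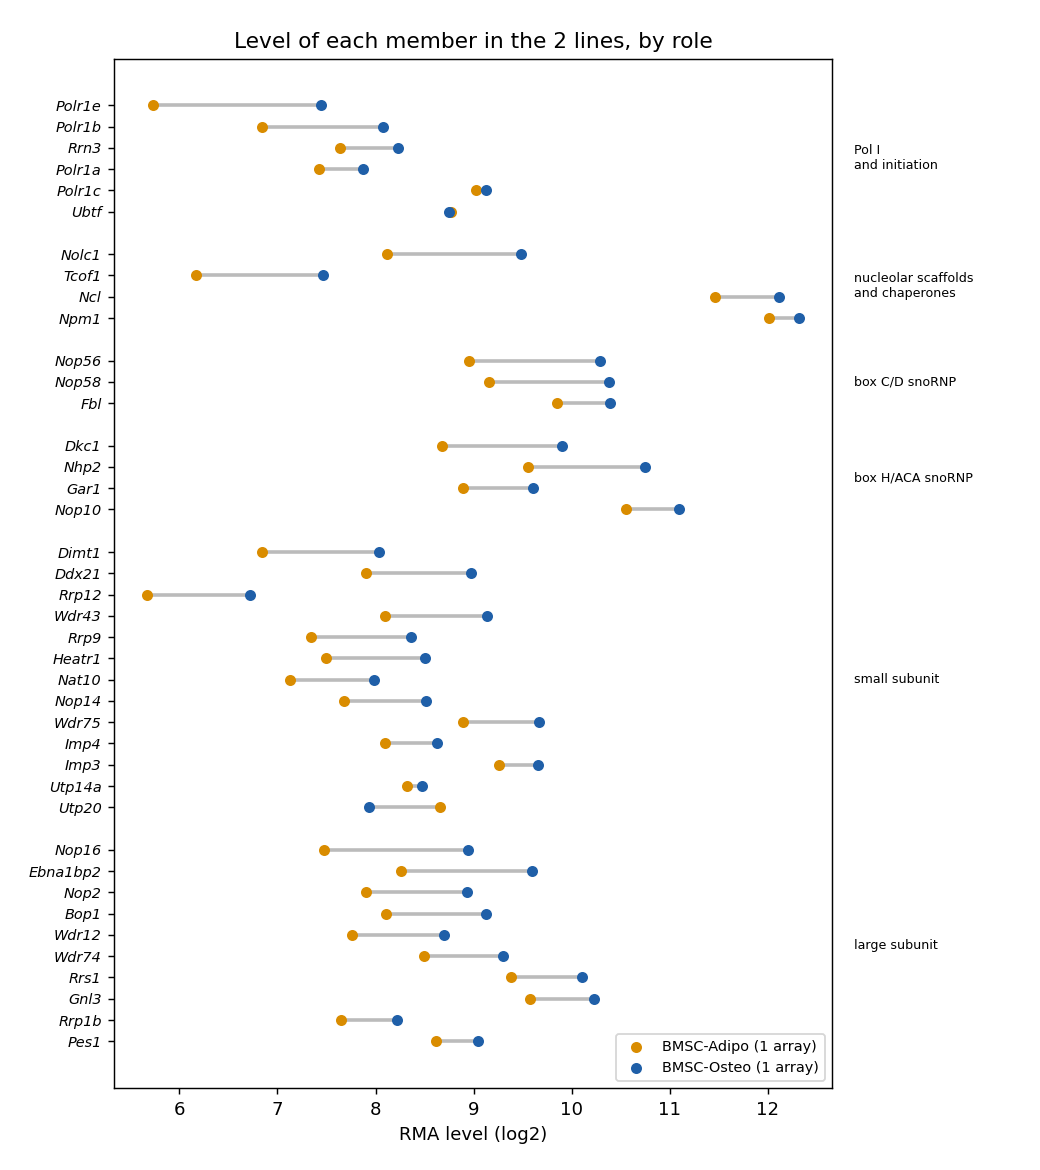
RMA level (log2, horizontal axis) of each of the 40 members on the array of BMSC-Adipo (orange) and of BMSC-Osteo (blue), grouped by role and ordered by difference. The blue point lies to the right for 38 members, while *Utp20* and, by 0.03, *Ubtf* run the other way. Levels of different genes come from different probes and are not comparable.

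Across both arrays the deposited values spanned log2 levels of 1.77 to 14.05, with medians of 5.01 in BMSC-Adipo and 5.02 in BMSC-Osteo. The lineage labels were checked against marker genes. All 5 adipocyte markers (*Adipoq*, *Pparg*, *Cebpa*, *Fabp4* and *Lpl*) were at least 2-fold higher in BMSC-Adipo, with a median difference of -5.54. Of 6 osteoblast markers, 5 (*Alpl*, *Ibsp*, *Bmp2*, *Pth1r* and *Sp7*) were at least 2-fold higher in BMSC-Osteo, and the median of the 6 was 3.67. The osteoblast factor *Runx2* was the exception at -0.28. Of 8 blood cell markers 7 had a probe set of their own and 4 passed the filter, at differences from -1.41 for the macrophage marker *Cd68* (5.40 and 3.99) to 0.32. *Ptprc*, which marks all white cells, lay below the filter at 2.56 and 2.78, as did the endothelial markers *Pecam1* and *Tek*. The endothelial markers *Kdr* (5.71 on both arrays) and *Cdh5* (4.17 and 4.47) passed the filter. The part of blood or endothelial cells in the results below was not tested. RMA sets both arrays to a like distribution, so values are relative to the rest of each line's RNA, and fewer expressing cells and less RNA per cell cannot be told apart.

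Within Pol I and its initiation factors, 5 of 6 members were higher in BMSC-Osteo and the subunits differed among themselves, with a median of 0.52. *Polr1e*, which encodes a subunit that helps the enzyme initiate and elongate, was at 5.73 in BMSC-Adipo and 7.45 in BMSC-Osteo, a difference of 1.72 (3.29-fold) that was the largest of all 40 members. Its other probe set gave 5.10 and 6.87. *Polr1b*, the second-largest catalytic subunit, was at 6.84 and 8.07 (1.23). Both of these stood past 2-fold, and the remaining 4 genes of this role did not. *Polr1a*, the largest subunit, was at 7.42 in BMSC-Adipo and 7.87 in BMSC-Osteo (0.45), with other probe sets at 0.54 and 0.67 and a pair of dim ones at -0.07 and -0.12. *Polr1c*, a subunit that Pol I shares with Pol III, was level at 9.02 and 9.12. *Rrn3*, the factor that brings Pol I to the promoter and couples it to growth signals, was at 7.64 and 8.22, a difference of 0.59. *Ubtf*, which encodes the ribosomal DNA binding protein UBF, was at 8.77 and 8.75, and its other probe set at 6.94 and 7.23. The polymerase subunits thus differed by unequal amounts, and the sign for the DNA-bound factor depended on the probe set.

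The sequence upstream of *Rrn3* is shown because it holds, in capitals, the palindrome CACGTG in 2 copies. This hexamer is the E-box bound by the transcription factor MYC and its partner MAX, and the stretch below is the 250 bases before the gene's start (RefSeq, GRCm38.p6, chr16:13780449-13780698, plus strand).
Rrn3: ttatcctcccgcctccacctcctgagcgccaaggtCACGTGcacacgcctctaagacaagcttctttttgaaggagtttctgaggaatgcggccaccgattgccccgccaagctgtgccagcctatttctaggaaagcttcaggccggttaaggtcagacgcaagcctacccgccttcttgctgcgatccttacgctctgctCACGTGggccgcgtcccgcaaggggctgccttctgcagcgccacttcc
The same stretch before *Polr1e*, the member with the largest difference (chr4:45018359-45018608, plus strand), has no CACGTG, and its 8 CG dinucleotides are in capitals.
Polr1e: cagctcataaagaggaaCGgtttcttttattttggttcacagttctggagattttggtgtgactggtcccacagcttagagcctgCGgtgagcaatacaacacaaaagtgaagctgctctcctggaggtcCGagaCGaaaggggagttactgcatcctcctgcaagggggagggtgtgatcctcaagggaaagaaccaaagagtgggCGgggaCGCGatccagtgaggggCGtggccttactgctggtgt

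The non-member genes of the Pol I machinery did not follow. Of 9 such genes on a list, 2 (22.2%) had a higher level in BMSC-Osteo, against 51.4% of all genes, and the median difference was -0.14. With only probe sets that lack a cross-matching suffix the median was 0.01, so its sign depended on the probe sets. Probe sets ran from -0.22 to 0.58 for *Polr1d* and from -0.23 to 0.27 for *Ttf1*. None was at least 2-fold higher there and 1 was at least 2-fold higher in BMSC-Adipo, against 6.68% and 7.88% of all genes. *Polr1g*, the usual partner of *Polr1e* in a heterodimer of the enzyme, was at 6.00 in BMSC-Adipo and 6.06 in BMSC-Osteo. *Taf1b* and *Taf1c*, subunits of the SL1 complex that binds the ribosomal DNA promoter, differed by -1.19 and -0.63, and the subunit gene *Polr1h* by -0.45. *Taf1d*, another SL1 subunit, was at 7.94 and 8.57 (0.63), with probe sets from 0.19 to 1.28. The 3 subunits common to all polymerases that had a probe set of their own ran from -0.05 to 0.31, Pol II subunits had a median of 0.11 over 8 genes, and Pol III subunits and factors one of 0.21 over 21 genes, of which *Polr3g* alone was at least 2-fold higher in BMSC-Osteo.

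All 4 nucleolar scaffolds and chaperones were higher in BMSC-Osteo, with a median difference of 0.97. *Nolc1*, a scaffold that carries snoRNPs between nucleolus and Cajal bodies, was at 8.12 in BMSC-Adipo and 9.49 in BMSC-Osteo (1.37), and its other probe sets differed by 0.63 and 1.24. *Tcof1*, which encodes treacle, the Pol I cofactor mutated in Treacher Collins syndrome, was at 6.17 and 7.46 (1.29), and its other probe sets also passed 2-fold, at 1.04 and 1.07. These 2 stood past 2-fold and the other 2 did not. *Ncl*, nucleolin, was at 11.46 and 12.11 (0.65), with 3 other probe sets between 0.74 and 0.82. *Npm1*, nucleophosmin, a chaperone of the granular part of the nucleolus, was at 12.01 and 12.32 (0.31). The smaller differences thus belonged to nucleolin and nucleophosmin.

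All 7 snoRNP core proteins were higher in BMSC-Osteo, 4 of them by at least 2-fold, with a median of 1.23 for box C/D and 0.95 for box H/ACA. In the box C/D particle, *Nop56* was at 8.96 in BMSC-Adipo and 10.29 in BMSC-Osteo (1.33), and a separate probe set gave 8.92 and 10.25. *Nop58*, its paralog and partner on the guide RNA, was at 9.16 and 10.38 (1.23). The methyltransferase *Fbl*, fibrillarin, was at 9.85 and 10.39 (0.53), so the 2 structural proteins stood past 2-fold and the enzyme did not. In the box H/ACA particle the enzyme was the member with the largest difference. *Dkc1*, the pseudouridine synthase dyskerin, was at 8.68 and 9.90 (1.22), with other probe sets at 1.42 and 1.51. *Nhp2* was at 9.56 and 10.74 (1.19), and a further probe set differed by 1.16. The remaining proteins of this particle stayed under 2-fold: *Gar1* was at 8.89 and 9.60 (0.71), and *Nop10* at 10.56 and 11.10 (0.54). *Dkc1*, *Nhp2* and *Nop10* are also core proteins of telomerase, and mutations in them cause dyskeratosis congenita in people.

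Factors that assemble the snoRNPs, but do not stay in them, did not lean to BMSC-Osteo. Over 9 of these genes the median difference was -0.01. *Ruvbl2*, an ATPase of the R2TP chaperone system, was the only one at least 2-fold higher in BMSC-Osteo, at 8.70 and 9.81, while its partner *Ruvbl1* was at 8.76 and 8.74. *Znhit6* and *Naf1*, which help build box C/D and box H/ACA particles, differed by -0.69 and -0.52.

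**Figure D2:**
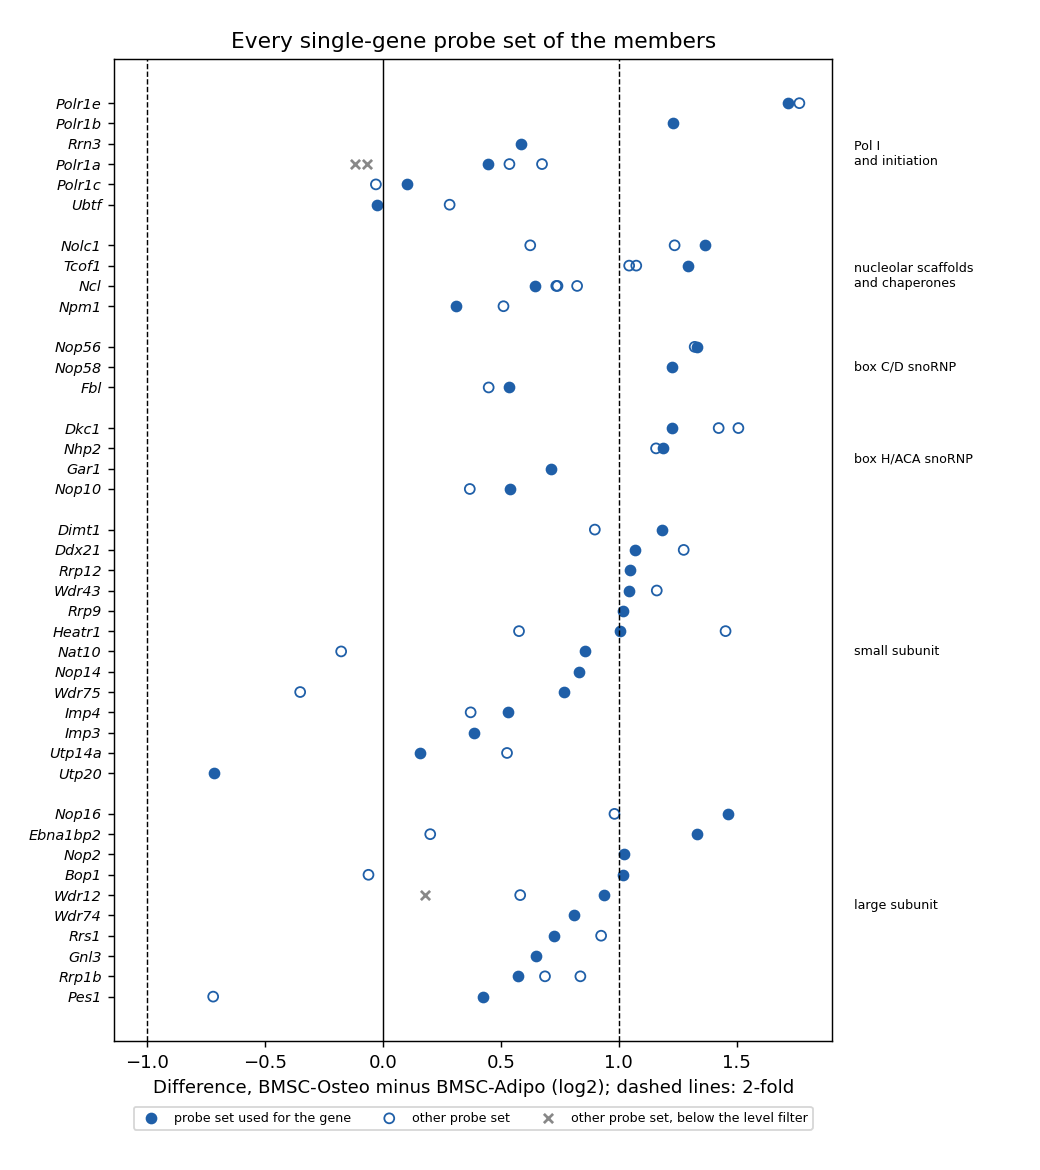
Difference of BMSC-Osteo minus BMSC-Adipo (log2, horizontal axis) for each of the 79 probe sets that name a member alone, with the probe set that stands for the gene filled, other probe sets open, and those below the level filter as crosses. Of 76 probe sets past the filter, 69 lie above 0, and the open circles left of 0 belong to *Pes1*, *Wdr75*, *Nat10*, *Bop1* and *Polr1c*.

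Small subunit factors were higher in BMSC-Osteo in 12 of 13 cases, with 6 past 2-fold and a median of 0.86. They fall into complexes of the processome, the particle that forms on the young transcript around the U3 snoRNP. *Heatr1*, *Wdr43* and *Wdr75* belong to its UTP-A complex, which binds first and also supports Pol I transcription. *Wdr43* was at 8.09 in BMSC-Adipo and 9.14 in BMSC-Osteo (1.04), with its other probe set at 1.16. *Heatr1* was at 7.50 and 8.51 (1.01), just past the 2-fold rule, and its other probe sets gave 0.58 and 1.45. *Wdr75* was at 8.89 and 9.66 (0.77), while a much dimmer probe set ran the other way, at 4.74 and 4.39. All 3 were therefore higher in BMSC-Osteo by the brighter probe set, at similar sizes.

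*Rrp9*, a protein of the U3 snoRNP itself, was at 7.34 in BMSC-Adipo and 8.36 in BMSC-Osteo (1.02). *Imp3* and *Imp4*, which pair U3 with the precursor RNA, differed less, with *Imp3* at 9.26 and 9.65 (0.39) and *Imp4* at 8.10 and 8.63 (0.53). Their binding partner *Mphosph10*, not a member, was at 7.54 and 8.68 (1.15), but its other probe set differed by 0.25. *Nop14*, another assembly factor of the small subunit, was at 7.68 and 8.51 (0.83). *Utp14a*, which activates a helicase that frees U3, was nearly level at 8.32 and 8.48 (0.16). Its dimmer probe set was at 4.94 and 5.46, a difference of 0.53.

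*Utp20* was the clear exception of the whole group. This very large scaffold protein of the processome was at 8.65 in BMSC-Adipo and 7.94 in BMSC-Osteo, a difference of -0.72, and it has a single probe set. It lies on chromosome 10, whose 661 genes past the filter had a median difference of -0.24. With that median subtracted, *Utp20* differed by -0.47. *Ddx21*, on the same chromosome, was higher in BMSC-Osteo. The part of the chromosome in either difference was not tested.

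Enzymes and late factors of the small subunit stood on the side of BMSC-Osteo. *Dimt1*, which methylates adenines near the end of the small subunit RNA, was at 6.85 and 8.03 (1.18), and its dimmer probe set at 0.90. *Ddx21*, an RNA helicase that links Pol I transcription with rRNA processing, was at 7.91 and 8.98 (1.07), with 1.28 by its other probe set. *Rrp12*, a factor of subunit export and late maturation, was at 5.67 and 6.72 (1.05). These 3 passed 2-fold. *Nat10*, the acetyltransferase of small subunit RNA and tRNA, was at 7.13 and 7.99 (0.86), and a dim probe set had -0.18.

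Large subunit factors were higher in BMSC-Osteo for all 10 members, 4 of them past 2-fold, with a median of 0.87. *Nop16* led them at 7.48 in BMSC-Adipo and 8.94 in BMSC-Osteo (1.46, or 2.75-fold), and its dimmer probe set differed by 0.98. *Ebna1bp2*, the counterpart of a yeast factor of early large subunit assembly, was at 8.26 and 9.60 (1.33), although another probe set, near the filter, had 0.20. *Nop2*, which methylates a cytosine of the large subunit RNA and is known as a proliferation antigen, was at 7.90 and 8.93 (1.02). The PeBoW complex, which is needed to process the 3′ side of the precursor, was not uniform. *Bop1* was at 8.11 and 9.12 (1.02), *Wdr12* at 7.76 and 8.70 (0.94), and *Pes1* at 8.61 and 9.04 (0.43). *Pes1* had the largest disagreement among probe sets, since its other one was at 7.02 and 6.30, a difference of -0.72, and the direction of *Pes1* is thus not settled by these arrays.

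The remaining members of this role lay between 1.49-fold and 1.76-fold. *Wdr74*, which works with the ATPase NVL on early particles, was at 8.49 in BMSC-Adipo and 9.30 in BMSC-Osteo (0.81). *Rrs1*, which helps dock the 5S ribonucleoprotein, was at 9.38 and 10.11 (0.73), and its other probe set had 0.93. *Gnl3*, nucleostemin, a GTPase of nucleoli in stem and dividing cells, was at 9.58 and 10.23 (0.65). *Rrp1b* was at 7.65 and 8.22 (0.57), and both other probe sets were above this, at 0.69 and 0.84. All of these were higher in BMSC-Osteo by every probe set that names them alone.

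How firmly a member can be placed depended on its probe sets. Of the 40, 28 had several probe sets of their own and 12 had 1. In 12 members every probe set was at least 2-fold higher in BMSC-Osteo, 7 of them with several: *Polr1e*, *Tcof1*, *Nop56*, *Dkc1*, *Nhp2*, *Wdr43* and *Ddx21*. In 6 of the 18 members past 2-fold another probe set fell short, and in 7 members the probe sets differed in sign. Probe sets for the same gene had a pooled SD of 0.35 in the 28 members and 0.40 in 6412 genes, which measures probe effects and not replicate error. As 8 members lay between 0.9 and 1.1, the count past 2-fold moves with small shifts, to 14 when the median of all genes is subtracted.

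**Figure D3:**
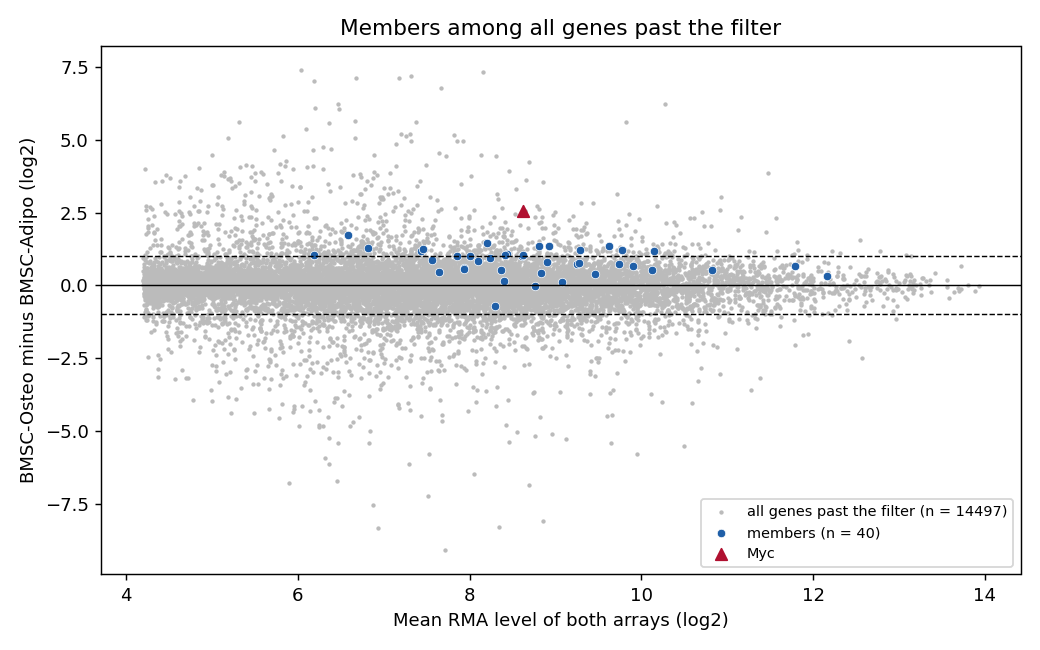
Difference of BMSC-Osteo minus BMSC-Adipo (log2, vertical axis) against mean RMA level of both arrays (log2, horizontal axis) for the 14497 genes past the filter (grey), the 40 members (blue) and *Myc* (triangle). The members sit between -0.72 and 1.72, most of them in a band above 0 at middle and high levels, while single genes elsewhere reach -9.10 and 7.40.

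The members were spread over 18 chromosomes of the RefSeq assembly GRCm38.p6. Chromosome medians differed between the lines, from -0.24 on chromosome 10 to 0.35 at the highest, among those with members. With each chromosome's median subtracted, 38 members were still above 0 and the 2 below 0 were again *Utp20* and *Ubtf*. The median of the members was then 0.80 and 13 passed 2-fold. The deposited annotation places 35 of the 40 in the nucleolus and gives 20 of them the term rRNA processing.

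Promoters were examined because the members moved together. RefSeq promoter windows (GRCm38.p6, 300 bases, 250 of them before the start) were listed for 34 members, and *Bop1*, *Fbl*, *Npm1*, *Rrp12*, *Rrs1* and *Tcof1* were not in the table. CACGTG, which reads the same on both strands, was found in windows of 6 of the 34 (17.6%), against 8.09% of all 27025 genes in the table and 11.4% of 10674 genes past the filter that matched it. The windows had a median of 18.5 CG dinucleotides, against 19.0 for genes past the filter and 7.0 for all. The 5 members besides *Rrn3* with a match are shown with up to 12 bases on each side and the hexamer in capitals.
Imp4 (chr1:34439696-34439725, plus strand): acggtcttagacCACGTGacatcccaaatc
Nop2 (chr6:125131811-125131840, plus strand): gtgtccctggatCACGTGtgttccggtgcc
Pes1 (chr11:3963965-3963994, plus strand): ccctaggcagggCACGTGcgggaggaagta
Wdr43 (chr17:71616220-71616249, plus strand): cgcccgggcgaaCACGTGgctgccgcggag
Utp20 (chr10:88826765-88826789, minus strand): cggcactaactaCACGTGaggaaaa
The hexamer begins at position -121 from the start in *Imp4*, -60 in *Nop2*, 3 in *Pes1*, 18 in *Wdr43* and 38 in *Utp20*, and the copies in *Rrn3* begin at -215 and -48. Members with a match had a median difference of 0.56 and ranged from -0.72 to 1.04, and the 28 without had a median of 0.90 and ranged from -0.03 to 1.72. A match is a description of the letters and not a binding site.

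*Myc*, which encodes a transcription factor known to activate Pol I and many nucleolar genes, was at 7.35 in BMSC-Adipo and 9.90 in BMSC-Osteo, a difference of 2.55 by its only probe set. The other 11 genes of its network lay within 2-fold, among them *Max* (0.01), the antagonists *Mxi1* (0.55) and *Mxd3* (0.39), and, on the other side, *Mlx* (-0.41) and *Mlxip* (-0.30), and the median of the 12 genes was 0.01. Cell cycle markers leaned the same way to a smaller extent. Of 24 proliferation genes past the filter, 19 (79.2%) were higher in BMSC-Osteo, against 51.4% of all genes. At least 2-fold higher there were 3 (12.5%, against 6.68% of all genes), *Ccnb2* (1.40), *Aurka* (1.28) and *Plk1* (1.19), all of mitosis. The other probe set of *Aurka* had 0.50. Further genes of mitosis on the list stayed under 2-fold, such as *Cdk1* (0.04), *Aurkb* (0.28) and *Bub1* (0.91). *Rrm2*, which makes DNA precursors, was at least 2-fold higher in BMSC-Adipo (-1.61), and the median was 0.29. The part of *Myc* or of growth rate in the difference of the members was not tested.

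Other ribosome assembly genes showed the same lean at a smaller size. Over 122 such genes that are not members, 97 (79.5%) were higher in BMSC-Osteo, against 51.4% of all genes, and the median was 0.41. At least 2-fold higher there were 15 (12.3%, against 6.68% of all genes). In BMSC-Adipo 2 were at least 2-fold higher, against 7.88% of all genes. Of the large subunit factors, 44 of 48 were higher in BMSC-Osteo, 12 of them at least 2-fold, and the median was 0.60. *Noc2l* was at 6.22 and 8.25 (2.03), though its other probe set had 0.43, and *Mrto4*, *Nol8* and *Lyar* differed by 1.38, 1.28 and 1.25. On the other side stood *Nop53*, which in yeast links large subunit assembly with the nuclear exosome and which was at 10.04 and 9.03 (-1.01). The 3 probe sets of *Nop53* ran from -1.01 to -0.05. Small subunit factors were higher in 35 of 43 cases (81.4%) with a median of 0.41. Only *Mphosph10* and *Bysl* (1.06) passed 2-fold, a share of 4.65% that is below the 6.68% of all genes. The RNA exosome, which trims the precursor, was higher in 12 of 13 genes (92.3%), none by 2-fold, with a median of 0.30 and *Exosc2* (0.78) first.

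Among neighbouring programs, the aminoacyl-tRNA synthetases were closest to the members, and the medians of the proteins of the ribosome itself lay near 0. The 20 cytosolic synthetases had a median difference of 0.84, with *Lars* at 8.83 and 11.11. At least 2-fold higher in BMSC-Osteo were 9 (45.0%), against 6.68% of all genes past the filter. Cytosolic ribosomal proteins had a median of 0.03 over 52 genes, 30 of them (57.7%, against 51.4% of all genes) higher in BMSC-Osteo. At least 2-fold higher there were 4 of these (7.69%, near the 6.68% of all genes), *Rps4l* (6.22), *Rpl39l* (1.88), *Rpl12* (1.61) and *Rps25*. The only probe set used for *Rpl12* was at 6.70 and 8.32, and that for *Rps25* at 7.73 and 9.23. None of the 52 was at least 2-fold higher in BMSC-Adipo, against 7.88% of all genes. Of the 81 listed only 55 had a probe set that names no other gene, and 52 of these passed the filter. Many were read near the highest deposited level of 14.05, such as *Rps28* at 13.60 and 13.53 and *Rpl3* at 13.17 and 13.04. Whether levels so near the top of the scale kept these differences small was not tested. Mitochondrial ribosomal proteins had a median of 0.10 over 77 genes, 43 of them (55.8%) higher in BMSC-Osteo. None was at least 2-fold higher there, and *Mrps6* (-1.28) alone was at least 2-fold higher in BMSC-Adipo. With 1 array per line the differences between these lists were not tested.

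**Figure D4:**
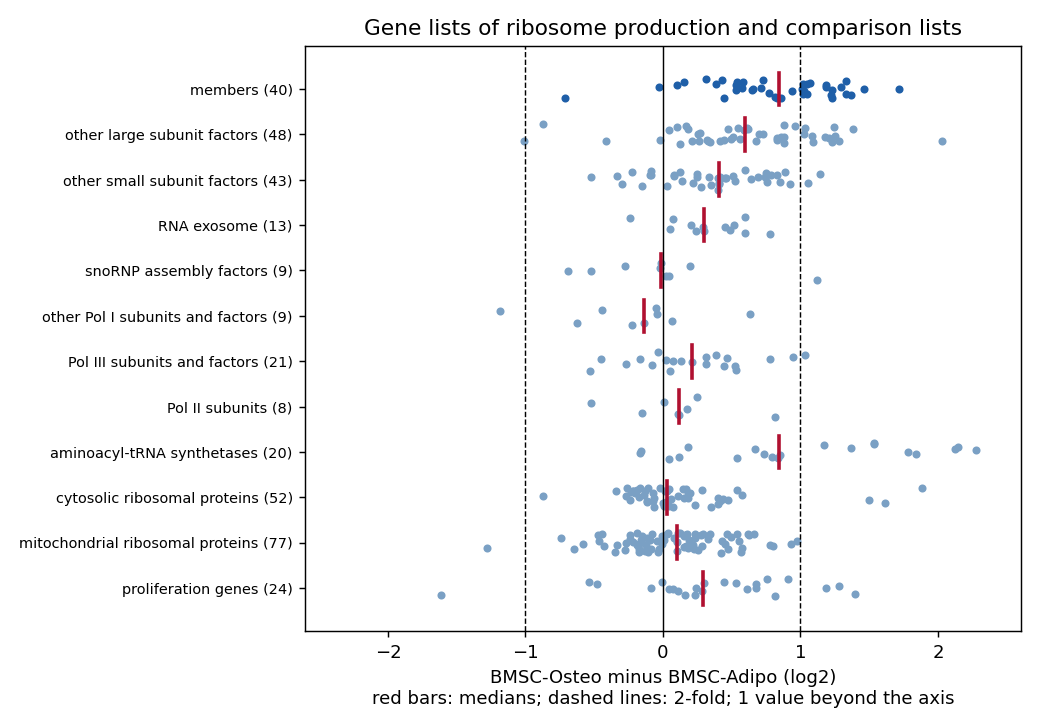
Difference of BMSC-Osteo minus BMSC-Adipo (log2, horizontal axis) of each gene past the filter in 12 lists, with the number of genes in brackets and the median as a red bar, and vertical jitter for display. Medians run from 0.84 for the members and the aminoacyl-tRNA synthetases to -0.14 for the other Pol I genes, the ribosomal proteins centre near 0, and 1 value, *Rps4l* at 6.22, lies beyond the axis.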

How the data were processed

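Total RNA (8 ug per labelling reaction) of 2 clonal lines was hybridised to Affymetrix mouse GeneChip arrays, 1 array per line, each from a pool of 3 cultures. The authors' deposited values are log2 levels made by RMA with the oligo package, a method of background correction, quantile normalization and summary per probe set. Software versions, RMA settings and genome build: not given in the sources used here. Levels in the series matrix were identical (largest gap 0). The deposited table also holds the authors' log2 fold change, which was not used here. Medium is given as 12% FBS in the labels and differs in the paper's methods.

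Of 45101 probe sets, 64 controls, 5368 without a gene and 1479 naming several genes were left out, and 38190 remained. Each gene took its probe set with the highest mean, and genes below the 30th percentile of that mean were filtered out. Members were matched by symbol: 81 probe sets, 2 of them shared with another gene and used only as an alternative. Every member is named, with *Myc*, lineage markers and up to 4 genes of each other list with the largest absolute difference. Other genes, such as *Ruvbl1*, *Max*, *Polr1g* or other partners, were named after their values were seen. *Polr1g*, *Polr1h* and *Nop53* carry the older symbols *Cd3eap*, *Znrd1* and *Gltscr2* in the deposited annotation. Members and lists were chosen with earlier results of these data known. Chromosomes came from RefSeq (GRCm38.p6) by Entrez ID, matched for 89.0% of genes. A size rule of 2-fold replaced a test, since 1 array per line allows none, and having so few arrays limits precision. The procedure was run on simulated data with planted differences. These were the same in every probe set of a gene, so the choice of probe set was not checked. Alternatives were the mean of probe sets, probe sets without a cross-matching suffix, shared probe sets, no filter or one at the 50th percentile, 3 ways of centring, an offset of 32 on the linear scale, the series matrix, and rules of 1.5-fold and 4-fold. Calculations used Python 3.11.15, numpy 2.4.6, pandas 2.3.3 and statsmodels 0.14.6, and plots matplotlib 3.10.9.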

Additional observations from a re-analysis of the deposited data

How the results depend on the processing

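With 1 array per line, leaving out a replicate was not possible, and no paired analysis was possible because each line has a single sample and no result comes from a test. A gene counted as moved past the probe set SD of 0.40, a median past the approximate standard error that SD gives it, and a count past 1.5 times.

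The members' median kept its sign in every alternative run: it was 0.75 with the mean of probe sets, 0.97 with plain probe sets only, 0.74 with an offset of 32, and between 0.80 and 0.86 otherwise. Their count past 2-fold in BMSC-Osteo was 10 with the offset, 28 under 1.5-fold (1 in BMSC-Adipo) and 0 under 4-fold, and 13 to 18 otherwise. By gene, *Pes1* turned to -0.15 with the mean of probe sets and -0.72 by its other probe set, *Wdr75* to -0.35 with plain probe sets, which is its other probe set, *Nat10* to -0.18, *Bop1* to -0.061 and *Polr1a* to -0.066 and -0.12 by single dim probe sets. The cause was not tested.

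By role, counts past 2-fold in BMSC-Osteo with chromosome medians subtracted were 1 for Pol I, 1 for scaffolds and 3 for the small subunit, whose median became 0.71. With the offset they were 0 for the small and 2 for the large subunit, and the large subunit had 2 with the mean of probe sets or with the median of all genes subtracted. Under 1.5-fold the large subunit had 8 and the small subunit 1 in BMSC-Adipo, and under 4-fold every role had 0.

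For genes outside the members, the mean of probe sets gave medians of 0.26 over all 122, 0.25 for small and 0.48 for large subunit factors, with 0 small subunit factors past 2-fold. The offset gave a median of 0.34 over all, and 1 small subunit factor past 2-fold. Under 1.5-fold, BMSC-Osteo had 43 of all, 1 of Pol I, 13 small and 25 large subunit factors and 3 of the exosome, and BMSC-Adipo 5 of all, 2 of Pol I, 2 large subunit factors and 1 of snoRNP assembly. Under 4-fold, BMSC-Osteo had 1 of all, 1 large subunit factor and 0 of snoRNP assembly, and BMSC-Adipo 0. With chromosome medians subtracted, 7 large subunit factors passed in BMSC-Osteo. Plain probe sets put 1 Pol I gene past 2-fold in BMSC-Osteo and gave the Pol I list a median of 0.01 in place of -0.14. In BMSC-Adipo the count over all became 1 with the mean of probe sets, loess or chromosome medians and 0 with plain probe sets or the offset. There the large subunit had 0 with the mean, plain probe sets, loess or offset, and Pol I 0 with plain probe sets, chromosome medians or offset. The 94 genes with the deposited term rRNA processing, a list chosen after seeing the data, had a median of 0.28 in place of 0.41.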
